A study of Bostrychia moritziana with 3 samples.

Results

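The transcripts described here were chosen by their RPKM (mapped reads per kilobase of a transcript's length, out of every 1000000): they reached at least 10 RPKM in the male gametophyte of the red alga Bostrychia moritziana and stood at 0.3 RPKM or less in both the female gametophyte and the tetrasporophyte. Transcripts absent from a file's listing were taken to lie at or below 0.3 RPKM. The rule found 176 male-restricted transcripts among 36534 in at least 1 listing, which is 1.81% of the 9748 transcripts at 10 RPKM or more in the male (male-abundant transcripts). All 176 are listed in all 3 files, so no member depends on a missing value.

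The libraries came from unialgal cultures (cultures of 1 algal species, which may hold bacteria) of a single strain, 2746. The male gametophytes were bearing developing spermatangia when collected, the female gametophytes were forming carpogonial branches, and the tetrasporophytes carried mature sporangia. Each stage is represented by 1 library of total RNA, the thalli were grown in the same medium, and how many thalli each library pools is not given in the sources used here. No spread between replicates can be estimated, no p-value was computed, and every difference below is between these 3 libraries. In whole thalli, fewer cells of a type and less RNA per cell cannot be told apart.

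Red algae have no flagellated cells at any stage. Male gametophytes bear spermatangia, small cells in clusters on the branches, each of which releases a non-motile spermatium that is carried passively to the receptive hair, the trichogyne, of the female carpogonium. After fertilization the female carries a carposporophyte, whose carpospores grow into diploid tetrasporophytes, and meiosis in the tetrasporangia restores the haploid male and female gametophytes. The transcripts carry assembly numbers that the files do not pair with genes, sequences or functions, so no label of sex or cell type could be checked against marker genes, and only the 2 most abundant members are named.

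The male-restricted transcripts were mostly of moderate abundance, with a few very abundant ones. Their male level ran from 10.04 to 444.24 RPKM with a median of 16.5 RPKM, and the middle 50% lay between 12.2 and 24.6 RPKM. The 9748 male transcripts at 10 RPKM or more had a higher median, 23.0 RPKM, with the middle 50% between 15.2 and 40.6 RPKM. The share of members at 100 RPKM or more, 9.09%, stood beside 7.37% of all transcripts at 10 RPKM or more. Of the 176, 112 lay below 20 RPKM, 39 from 20 to below 50, 9 from 50 to below 100, and 16 at 100 RPKM or more. Together the 176 summed to 6334 RPKM, or 1.26% of the summed male RPKM. The top 16 made up 48.0% of that sum, and the top 10 made up 37.5%.

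ISGT_16731, the most abundant member, stood at 444.24 RPKM in the male, against 0.08 RPKM in females and 0.20 RPKM in tetrasporophytes. After 1 RPKM was added to each value, the log2 ratio of the male was 8.69 over the female and 8.54 over the tetrasporophyte, on a scale that understates the difference where one value is low. It made up 7.01% of the members' summed male RPKM. ISGT_16675 stood at 313.61 RPKM in the male, against 0.06 RPKM in females and 0.07 RPKM in tetrasporophytes, with log2 ratios of 8.21 and 8.20 on the same scale. The transcript with the next number is also a member, at 11.24 RPKM in the male, against 0.01 RPKM in females and 0.04 RPKM in tetrasporophytes. These neighbours in number thus differed 27.9-fold from each other in the male.

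The next members in order of male level lay close together in the male. They stood at 273.94, 267.50, 245.43 and 240.70 RPKM in the male, against 0.05, 0.02, 0.05 and 0.04 RPKM in females and 0.12, 0.12, 0.10 and 0.12 RPKM in tetrasporophytes. All 4 stood higher in tetrasporophytes than in females, as did 52.5% of the 28433 non-members listed in all 3 files. The seventh member stood at 173.83 RPKM in the male, against 0.29 RPKM in females and 0.16 RPKM in tetrasporophytes, the highest female value among the 16 members at 100 RPKM or more. The eighth stood at 146.14 RPKM in the male, against 0.01 RPKM in females and 0.10 RPKM in tetrasporophytes. Its male to female ratio, 14614-fold without a pseudocount, was the largest of any member above 0 in the female, and it rests on a value of 0.01 RPKM, the smallest the 2 decimals can show.

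**Figure D1:**
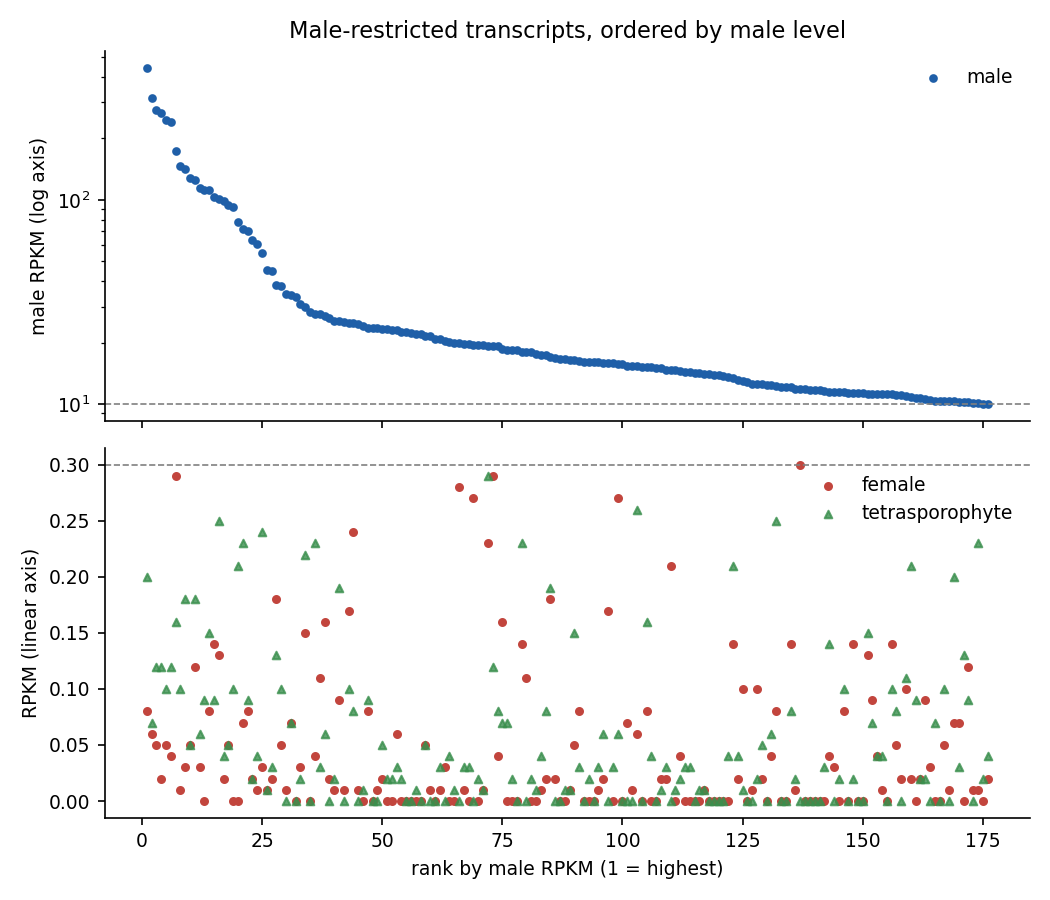
Male RPKM (upper panel, log axis) and female and tetrasporophyte RPKM (lower panel, linear axis) of the 176 male-restricted transcripts, ordered by male level; dashed lines mark the limits of 10 and 0.3 RPKM that chose them. Male values drop from 444.24 RPKM to about 100 RPKM over the first 16 ranks and keep falling, to 10.04 RPKM at the last. Female and tetrasporophyte values scatter between 0 and 0.30 RPKM.

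Values in the other libraries were well inside the limit for most members. The median member stood at 0.02 RPKM in females and 0.03 RPKM in tetrasporophytes, and 148 members were at 0.1 RPKM or less in females and 144 in tetrasporophytes. Summed over all 176, the male held 6334 RPKM, against 8.36 RPKM in females and 9.98 RPKM in tetrasporophytes. For the 113 members above 0 in the female, the male value was 39.4-fold to 14614-fold higher, with a median of 599-fold. For the 122 above 0 in the tetrasporophyte it was 44.0-fold to 4520-fold higher, with a median of 497-fold. No fold is given for a value listed at 0. The rule used these contrasts, so the folds describe the members and test nothing.

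On the log2(RPKM + 1) scale the members' median male to female ratio was 4.07, against 0.20 over all transcripts considered, and the median male to tetrasporophyte ratio was 4.08, against 0.04. In all 176 the male exceeded each of the others by 4-fold or more, as the rule itself requires. Among all transcripts that reached 1 RPKM in one library of the pair, the male exceeded the female by 4-fold or more in 9.23%, the tetrasporophyte in 7.52% and both in 5.52%. The members are 16.5% of the 1069 transcripts at least 4-fold higher than both. The other transcripts of that group were below 10 RPKM in the male or above 0.3 RPKM in another library.

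Zeros divided the members into 4 groups. In both other libraries 32 members (18.2%) were listed at 0, 31 were at 0 in the female only, 22 in the tetrasporophyte only, and 91 (51.7%) were above 0 in both. A listed 0 can hide a value below 0.005 RPKM, since values have 2 decimals. The 32 members at 0 in both stood between 10.35 and 33.49 RPKM in the male, with a median of 14.01 RPKM. For the 91 members above 0 in both, the median male level was 19.25 RPKM, and they included 15 of the 16 at 100 RPKM or more. The remaining one of these 16 stood at 111.55 RPKM in the male, against 0 in females and 0.09 RPKM in tetrasporophytes.

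Members at 0 in both others were among the less abundant ones. From 10 to below 20 RPKM in the male, 25 of 112 members (22.3%) were at 0 in both other libraries, and from 20 to below 50 RPKM 7 of 39 (17.9%). Above that, none of the 9 members from 50 to below 100 RPKM and none of the 16 at 100 RPKM or more was at 0 in both. For members at 100 RPKM or more, the summed female level was 0.0388% and the summed tetrasporophyte level 0.0670% of the summed male level. From 10 to below 20 RPKM both shares were 0.335%. The fixed limit of 0.3 RPKM is a smaller share of a more abundant transcript, so these shares follow in part from the rule.

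**Figure D2:**
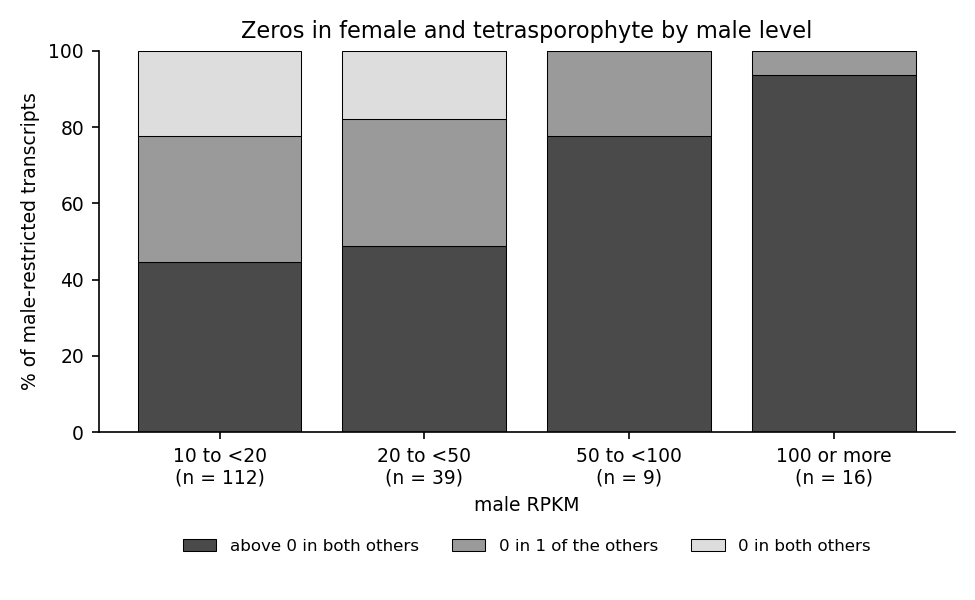
Share of male-restricted transcripts (vertical axis, %) above 0 in both other libraries, at 0 in 1 of them or at 0 in both, by male level in RPKM (horizontal axis). Members at 0 in both make up 22.3% of the lowest class and 17.9% of the next, and there are none from 50 RPKM upward.

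More members stood higher in the tetrasporophyte than in the female, as did transcripts in general. The tetrasporophyte value was above the female value in 87 members (49.4%) and below it in 46 (26.1%). Of the 28433 non-members listed in all 3 files, 52.5% were higher and 34.6% lower in the tetrasporophyte, so the lean is not particular to the members. Of the 7584 of these at 0.3 RPKM or less in both libraries, 30.7% were higher and 21.6% lower. On the relative depth estimated from low values, 1 read is worth less RPKM in the female than in the tetrasporophyte. Whether this bears on the lean was not tested. Among the 91 members above 0 in both libraries, the tetrasporophyte was higher in 56, lower in 24 and equal in 11. At 100 RPKM or more in the male, the tetrasporophyte was higher than the female in 13 of 16 members, lower in 2 and equal in 1. For these last counts no share of non-members picked by the same limits is given, so whether they differ from other transcripts is not known. The differences are at most 0.3 RPKM in size by the rule and were not tested.

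The number of reads behind these values is unknown, but a lower bound can be given for most members if whole reads were counted. A value above 0 stands for at least 1 read, so a member's small value in the female or the tetrasporophyte limits what 1 read is worth in the male. Relative depth was taken from the steps of low values, with 1.12 times as many reads in the female and 0.973 times as many in the tetrasporophyte as in the male. On this reading the male value of ISGT_16731 rests on at least 4677 reads and that of ISGT_16675 on at least 4318. Of the 144 members above 0 in another library, 133 rest on at least 100 reads and 40 on at least 1000. The lowest bound was 34 reads and the median 574. For the 32 members at 0 in both other libraries no bound can be given.

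At the edges of the rule, the lowest male value was 10.04 RPKM, and the highest just below the floor was 9.97 RPKM. From 10 to below 11 RPKM there were 18 members, and 29 transcripts from 9 to below 10 RPKM would have met the rule with a lower floor. In the other libraries the highest member value was 0.30 RPKM and the lowest just outside was 0.31 RPKM. Members with a value above 0.2 RPKM in either other library numbered 21, and 18 male-abundant transcripts had their higher other value above 0.3 and up to 0.4 RPKM. Among all 9748 male-abundant transcripts few lay near this limit. Between 0.3 and 0.5 RPKM in the higher of the others there were 25, between 0.5 and 1 RPKM there were 41, between 1 and 10 RPKM there were 788, and above 10 RPKM there were 8718 (89.4%). The class of the 176 members reaches down to 0 and the classes differ in width, so these counts cannot show a separate group.

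The same rule turned to the other libraries gave 98 female-restricted and 175 tetrasporophyte-restricted transcripts. As a share of transcripts at 10 RPKM or more in the own library, the male-restricted were 1.81%, the tetrasporophyte-restricted 1.78% and the female-restricted 1.12%. Median own levels were close, at 16.5 RPKM for the male-restricted, 16.7 RPKM for the female-restricted and 17.4 RPKM for the tetrasporophyte-restricted. Above the median the order depended on the level. The upper quartile was lowest in the male-restricted group, at 24.6 RPKM, against 30.3 RPKM in the female-restricted and 30.8 RPKM in the tetrasporophyte-restricted. At 20 RPKM or more were 36.4% of the male-restricted, 40.8% of the female-restricted and 41.1% of the tetrasporophyte-restricted. At 50 RPKM or more the shares were 14.2% of the male-restricted (25 transcripts), 4.08% of the female-restricted (4) and 9.14% of the tetrasporophyte-restricted (16). The highest stood at 444.24 RPKM in the male-restricted group, 115.76 RPKM in the female-restricted and 222.52 RPKM in the tetrasporophyte-restricted. All 98 and all 175 are missing from at least 1 listing, and why they are missing is not given in the sources used here. They met the rule at least in part because missing values were taken to be 0.3 RPKM or less. The male-restricted met it on listed values alone. The counts, shares and levels of the 3 groups thus rest on unlike evidence, and their zeros cannot be set against each other. With 1 library per stage, none of these differences was tested.

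**Figure D3:**
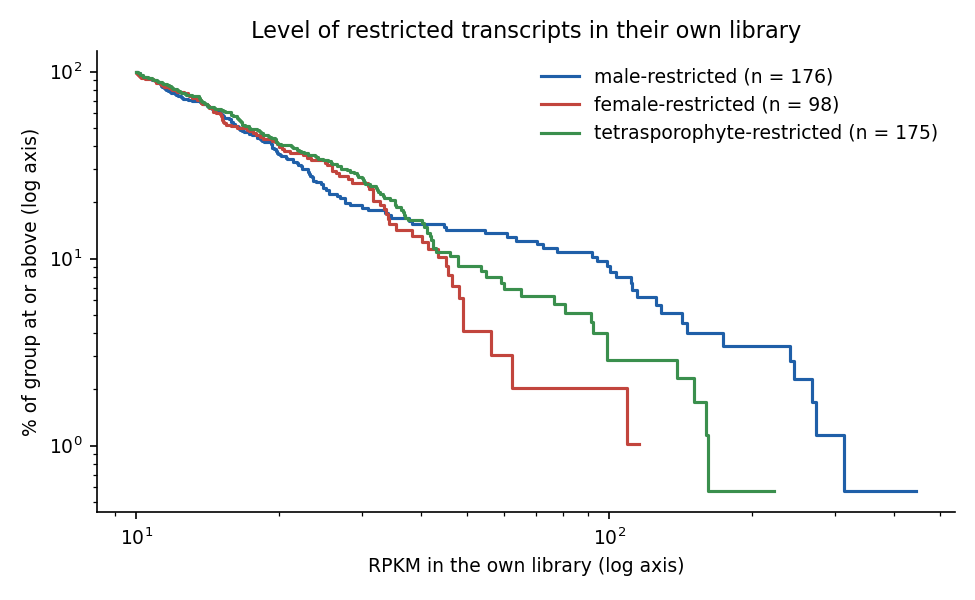
Share of each restricted group (vertical axis, %, log) at or above a given RPKM in its own library (horizontal axis, log): 176 male-restricted, 98 female-restricted and 175 tetrasporophyte-restricted transcripts. At 20 RPKM the male-restricted curve is the lowest (36.4%), at 50 RPKM it is the highest (14.2%), and it reaches farthest, to 444.24 RPKM.

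The one property in the files that the rule did not use is the transcript number, whose meaning is not given in the sources used here. The number is not independent of the RPKM that the rule used, since levels over all listed transcripts differed along it. The members were confined to part of the numbering. Their numbers ran from 4263 to 23859 with a median of 18693.5, whereas the transcripts as a whole run to 43049. None of the 2385 transcripts at 10 RPKM or more in the male with numbers above 24000 was a member. From 25000 to 37999 no transcript reached 10 RPKM in the male, so the floor alone excluded members there. Of the 4214 with numbers up to 5000, 2 were members (0.0475%).

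Between these ends the share was higher from range to range. Members were 1.15% of the male-abundant transcripts numbered 5001 to 10000 (21 of 1829), 2.76% of those from 10001 to 15000 (26 of 942) and 18.5% of those from 15001 to 20000 (51 of 275). From 20001 to 24000 they were 73.8% (76 of 103). In the last of these ranges 0 transcripts reached 10 RPKM in the female and 20 did so in the tetrasporophyte, against 103 in the male. Transcripts of that range thus stayed below 10 RPKM in the female whether or not they were members. The densest block of 500, numbered 23000 to 23499, held 28 members among 33 male-abundant transcripts. A separate cluster of 15 members lay between 5000 and 5999, where 268 transcripts reached 10 RPKM in the male.

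Along the numbering the members differed in level and in their zeros. The ranges 10001 to 15000 and 15001 to 20000 held 13 of the 16 members at 100 RPKM or more, and the range 20001 to 24000 held 3. At 0 in both other libraries were 20 of the 76 members (26.3%) from 20001 to 24000 but 3 of the 51 (5.88%) from 15001 to 20000. In the female, whatever the tetrasporophyte value, 41 of the 76 (53.9%) and 8 of the 51 (15.7%) were at 0. Among non-members listed in all 3 files, 50.7% of those from 20001 to 24000 and 5.18% of those from 15001 to 20000 were at 0 in the female. At 0 in both libraries were 27.9% and 2.07% of these non-members. The shares of members and non-members were thus close from 20001 to 24000, and those of members were higher from 15001 to 20000. Unlike the members, these non-members had no upper limit in the female or the tetrasporophyte. Members at 0 in both libraries had a median number of 22474.5, against 16676 for those above 0 in both. What part the numbering has in the restriction to the male was not tested.

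The restricted transcripts of the 3 stages overlapped in the middle of the numbering and differed at its ends. Numbers 5001 to 20000 held 98 of the 176 male-restricted (55.7%), 97 of the 98 female-restricted (99.0%) and 61 of the 175 tetrasporophyte-restricted (34.9%). Of all 36534 listed transcripts, 4732 were numbered 5001 to 10000, 4412 were numbered 10001 to 15000 and 4244 were numbered 15001 to 20000. Within 5001 to 20000, 57 of the female-restricted lay between 17000 and 17999, where 162 transcripts reached 10 RPKM in the female. The same block held 7 male-restricted transcripts among 102 at 10 RPKM or more in the male. It held 10 tetrasporophyte-restricted among 79 at 10 RPKM or more in the tetrasporophyte. No female-restricted transcript lay above 18726. The tetrasporophyte-restricted ran from 159 to 42886. Of the 814 transcripts at 10 RPKM or more in the tetrasporophyte between 3000 and 3999, 30 were tetrasporophyte-restricted. Between 30000 and 30999 all 19 such transcripts were. Neither stretch held a male-restricted transcript. From 3000 to 3999, 757 transcripts reached 10 RPKM in the male. From 30000 to 30999 none did, so the floor alone excluded members there.

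**Figure D4:**
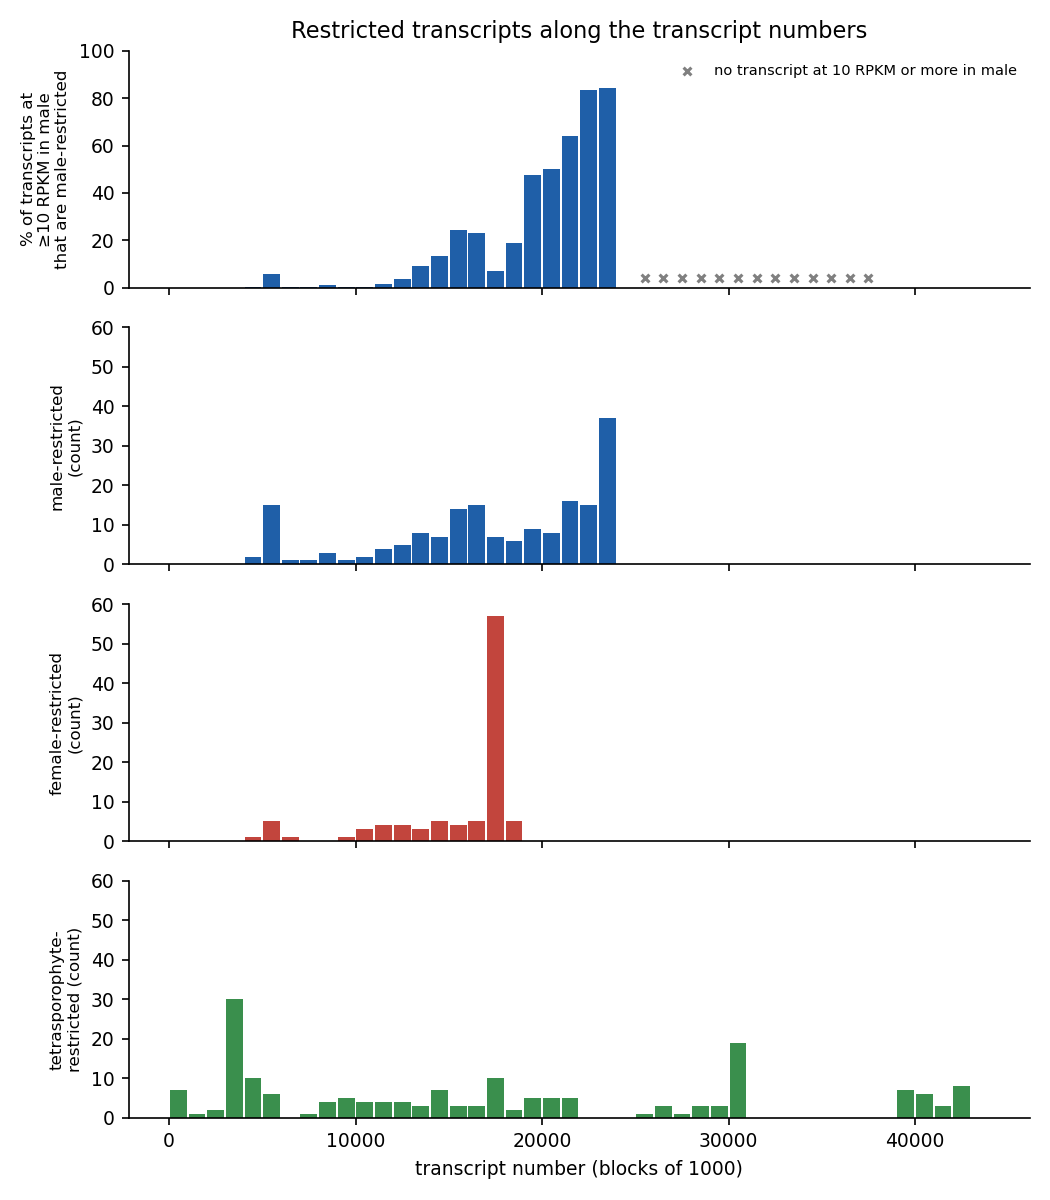
Along the transcript numbers in blocks of 1000 (horizontal axis), the share of male-abundant transcripts that are male-restricted (top panel, %) and the counts of male-, female- and tetrasporophyte-restricted transcripts (lower panels); crosses mark blocks with no transcript at 10 RPKM or more in the male. The male share is highest, at 84.1%, in the block that starts at 23000 and is 0 from 24000 on wherever it can be computed, and 57 of the 98 female-restricted transcripts fall in the block that starts at 17000.

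Some members stood directly beside one another. In number, 8 of the 176 (4.55%) were next to another member, in 4 pairs, and 45 (25.6%) lay within 5 of another. Among the female-restricted, 10.2% were next to another and 39.8% within 5, and among the tetrasporophyte-restricted 10.9% and 26.9%. These groups differ from the members in size and in their spread along the numbering. No share over all male-abundant transcripts is given, so whether these counts are low or high is not known. The 4 male-restricted pairs differed within themselves. One had 14.35 and 11.79 RPKM in the male, a ratio of 1.22, and the others had ratios of 4.01, 4.25 and 27.9. Of 303 listed non-members directly beside a member, 69 (22.8%) were also at 1 RPKM or more in the male and at most 0.3 RPKM in both others. In the same blocks of 1000 numbers, weighted as these neighbours fall in them, 16.1% of all listed non-members showed this pattern. At any male level above 0.3 RPKM the shares were 36.0% and 32.0%.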

How the data were processed

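RNA of male gametophytes, of female gametophytes and of tetrasporophytes was isolated using TRI Reagent, and 1 Illumina library was made per stage, per the labels' protocols. The deposited values are RPKM per assembled transcript, per the file headers, and have 2 decimals. How the authors assembled, aligned and counted, and the read totals and transcript lengths, is not given in the sources used here. Errors in assembly or in sharing reads between similar transcripts cannot be seen in such values, and no counting interval was given. Deposited RPKM were used unscaled, and the 3 listings were joined on the transcript number. The members and all comparisons were chosen with earlier results of these data known. Fold counts used a pseudocount of 1 RPKM, a filter of 1 RPKM in one library of the pair, missing values set to 0.3 RPKM and a threshold of 4-fold. The named transcripts are the 2 members with the highest male RPKM. Blocks of 1000 numbers, the ranges of numbers and the classes of level were chosen after the values were seen.

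Relative depth is the ratio of RPKM at which most transcripts pile up above the neighbouring ratios, among those between 0.3 and 3 RPKM in both libraries. The commonest ratio is assumed to come from transcripts with equal reads: 71 transcripts lay within 0.01 of a log2 male to female ratio of 0.16, against 29.8 beside it, and 145 at -0.04 for male to tetrasporophyte, against 33.5. Calculations used Python 3.11.15, numpy 2.4.6 and pandas 2.3.3, and figures matplotlib 3.10.9.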

Additional observations from a re-analysis of the deposited data

How the results depend on the processing

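With 1 library per stage no library could be left out within a group, and read totals are unknown, so counting error limits every value near 0. No paired analysis was possible because each stage has 1 library. Of 57 recomputed values, 22 kept within 1.5 times of the count reported or to the same 3 digits of a level, and 35 moved. The number of male-restricted transcripts was 127 with a limit of 0.1 RPKM, 242 with a limit of 1 RPKM and 153 with median-of-ratios scaling, all 153 among the 176. With a limit of 0.1 RPKM the female-restricted and tetrasporophyte-restricted numbered 55 and 175, and with a limit of 1 RPKM 114 and 213. With median-of-ratios scaling they numbered 113 and 172. That scaling shifted all log2 ratios by -0.28 (male to female) and -0.07 (male to tetrasporophyte).

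With a floor of 5 RPKM there were 381 male-restricted transcripts, of which 105 were at 0 in both others and 56 were next to another, with a median of 9.45 RPKM, and there were 160 female-restricted and 301 tetrasporophyte-restricted. With a floor of 20 RPKM the values were 64, 7, 0 and 32.2 RPKM, with 40 female-restricted and 72 tetrasporophyte-restricted. Scaling each library to a sum of 1000000 about doubles every value, which lowers both the floor (to 5.03 deposited RPKM in the male) and the limit (to 0.137 in the female and 0.146 in the tetrasporophyte). It gave 311 male-restricted, 105 at 0 in both, 30 next to another and 307 tetrasporophyte-restricted, and kept 136 of the 176. The male median of 18.4 under this scaling is in scaled values and cannot be set beside the medians in deposited RPKM. A limit of 0.1 RPKM gave 55 female-restricted and a male median of 16.1 RPKM, and a limit of 1 RPKM gave 14 male-restricted next to another and a median of 17.5 RPKM. Under median-of-ratios scaling the median was 16.6, also in scaled values. Leaving out transcripts missing from a listing left all 176 male-restricted. It left 0 female-restricted and 0 tetrasporophyte-restricted, since all of these are missing from at least 1 listing. Within 5 numbers of another were 45 members. The 1069 transcripts at least 4-fold higher in the male than in both others became 2673 with a pseudocount of 0.1 RPKM, 575 with a filter of 10 RPKM, 425 at 8-fold and 1652 with each library scaled to a sum of 1000000.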
